A study of Mus musculus with 3 samples.

Results

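The MHC class II genes and their regulator were examined in DNase-seq libraries of mouse natural killer cells. The 7 genes, H2-Aa, H2-Ab1, H2-Eb1, H2-DMa, H2-DMb1, Cd74 and Ciita, were taken by name out of 21853 protein-coding genes, with the gene body and 10 kb on each side. The cells were primary natural killer cells from male B6CASTF1/J mice, first-generation offspring of C57BL/6 and CAST, at 2 months of age. All 3 libraries belonged to 1 group and served as biological replicates 1, 2 and 3, with no treatment named and no control group. They shared 1 donor label. No source used here states separate animals or the sort that gave the cells, so the differences among libraries could be technical. DNase I cuts DNA that is not wrapped in nucleosomes. A peak is a site with many cuts, and a footprint is a short stretch inside it that is protected from cutting. In such bulk libraries a site open in fewer cells and a site less open in each cell cannot be told apart.

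MHC class II molecules present peptides from ingested proteins to CD4 T cells. H2-Aa with H2-Ab1 encode the chains of I-A, and H2-Eb1 encodes the beta chain of I-E. Cd74 is the invariant chain that fills the groove during assembly, and H2-DMa with H2-DMb1 form the exchanger that loads peptide. Ciita is the coactivator that acts at all of these promoters without binding DNA itself: it docks on RFX, CREB and NF-Y, which occupy the X and Y boxes upstream of each gene. B cells, dendritic cells and macrophages are the textbook class II cells, whereas mouse natural killer cells are known for little or none of it.

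The peak lists were not of equal length, and the read depth behind them is not known. Replicate 1 gave 40484 peaks, replicate 2 gave 84564 and replicate 3 gave 81854. Peak signal is the authors' deposited value, and what 1 unit stands for is not stated, so each peak was ranked as a percentile within its own library. Promoter peaks were found at 8, 11 and 12 of 12 natural killer marker genes in replicates 1, 2 and 3, with Il2rb, Prf1 and Gzmb ranking highest. They were found at 7, 12 and 11 of 12 B cell marker genes. Among all protein-coding genes the share was 51.7%, 58.8% and 58.0%.

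The sequences of the class II region are shown first, since the footprints turned on them. The X box was searched as AACNNNTG followed by the Y box ATTGG 15 to 35 bases on, on both strands, in the 250 bases before and 50 after each coding start. Of the 7 genes only H2-Eb1 held such a pair, against 1.33% of all protein-coding genes. A wider X core, ACNNTGA or ACNNNTGA, with ATTGG 21 to 23 bases on, was written after the footprinted sequences had been seen. It was found on the gene's own strand in 4 of the 7, H2-Aa, H2-Ab1, H2-Eb1 and H2-DMa, against 0.288% of genes. H2-DMb1 also held it, just past the window. Since the wider form was fitted to these genes, its count is a description. In the peak regions around the 7 genes it occurred 12 times, 1 of them in an intron of Cd74 and 11 on chromosome 17, the latter with 21, 22 or 23 bases between the cores in 3, 7 and 1 cases. The 11 copies on chromosome 17 are printed 5′ to 3′ on the strand of the pair, from the GRCm38 (mm10) reference, which carries the C57BL/6 allele. Capitals mark the X and Y cores. Each name gives the nearest of the 7 genes and the position of the first X base relative to its coding start. At H2-DMa and at H2-DMb1 itself, where the box lies in an annotated exon, 30 bases around the X core are given.
H2-DMa -111: aagcttctcctcagcgACTGATGAtgttaa
H2-DMb1 -7943: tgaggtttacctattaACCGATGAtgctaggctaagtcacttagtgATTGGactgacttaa
H2-DMb1 +28: tgaggtttacctagtaACTGATGAtgctag
H2-Ab1 -5470: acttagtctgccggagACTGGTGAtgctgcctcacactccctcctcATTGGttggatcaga
H2-Ab1 -56: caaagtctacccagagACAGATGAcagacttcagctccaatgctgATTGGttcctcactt
H2-Aa -78: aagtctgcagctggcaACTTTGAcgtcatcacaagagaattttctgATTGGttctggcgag
H2-Aa -3923: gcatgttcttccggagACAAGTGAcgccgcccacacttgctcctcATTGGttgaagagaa
H2-Aa -8438: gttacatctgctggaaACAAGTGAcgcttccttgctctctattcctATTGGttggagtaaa
H2-Eb1 -4592: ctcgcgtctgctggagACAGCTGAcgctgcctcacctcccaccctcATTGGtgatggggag
H2-Eb1 -903: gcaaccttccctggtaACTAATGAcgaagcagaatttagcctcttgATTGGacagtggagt
H2-Eb1 -88: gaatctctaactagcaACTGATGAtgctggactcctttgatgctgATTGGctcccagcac

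Of these 11 pairs, 5 lay within 500 bases of a coding start and 6 lay further away. The copy at H2-DMb1 -7943 (chr17:34145113-34145173) sits at the promoter of the neighbouring H2-DMb2. The copy at H2-Ab1 -5470 (chr17:34257723-34257783) lies just inside a noncoding transcript of H2-Ab1 that starts at position 34257689. Those at H2-Aa -3923 (chr17:34291730-34291789), H2-Aa -8438 (chr17:34296245-34296305), H2-Eb1 -4592 (chr17:34301259-34301319) and H2-Eb1 -903 (chr17:34304920-34304980) lie between H2-Aa and H2-Eb1, which are read away from each other. The last 3 of these lie within the antisense gene Gm20513. In the middle 150 bases of all merged regions the same pair occurred in 0.0956%, and in 8 of the 90 regions around the 7 genes.

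The pairs were covered by footprints in the libraries. At H2-Eb1 -88 the whole pair, 34 bases, lay inside footprints in replicates 1, 2 and 3. At H2-Aa -78, 33, 35 and 35 of 35 bases were covered in replicates 1, 2 and 3, and at H2-DMa -111 the counts were 29, 35 and 35 of 35. The H2-DMa pair lay inside the called peak in replicate 2 and outside it in replicates 1 and 3. Cover was counted over all deposited footprints, inside a peak or not. At H2-Ab1 -56, 29, 24 and 28 of 34 bases were covered, the X core whole and the Y core not at all in each library. The X core lay wholly inside a footprint in 6 of the 11 pairs in replicate 1 and in 11 of 11 in replicates 2 and 3. The Y core did so in 2, 7 and 7. The pair in the Cd74 intron (chr18:60806682-60806717) lay in a region found in replicate 2 alone, with no base of either core footprinted in any library and 0, 11 and 0 of its 36 bases covered. The pairs that had no footprinted base in replicate 1, H2-DMb1 -7943, H2-Aa -8438 and H2-Eb1 -4592, had 20, 35 and 34 in replicate 2 and 14, 35 and 34 in replicate 3. For scale, footprints took up 15.3%, 15.8% and 19.6% of all peak bases around the 7 genes. Among pairs inside a peak of the library, the median cover on chromosome 17 was 69.1%, 100% and 98.6% over 8, 11 and 10 pairs. Outside the class II windows it was 23.5%, 14.7% and 20.6% over 37, 69 and 68 pairs of the same form. Those were searched only in the middle 150 bases of each region, whereas the pairs on chromosome 17 were searched over whole regions. Since the form was written from footprinted sequences of the class II genes, the higher cover there was built into the choice and is a description only. The Cd74 promoter held the X core with a Y core in the opposite orientation, CCAAT, 16 bases on, and 11, 28 and 29 of its 29 bases were footprinted in replicates 1, 2 and 3. A looser form, with either Y orientation 15 to 35 bases on, takes in this pair and was held by 5.52% of all genes in a promoter.

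**Figure D1:**
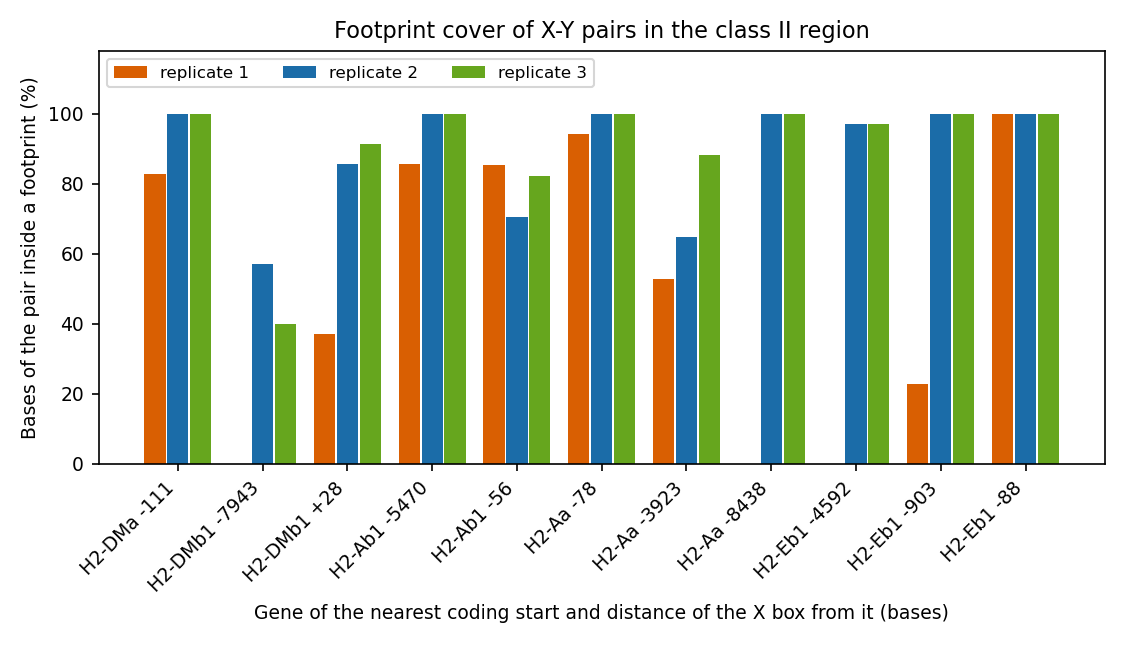
Bars give the percentage of bases of each of the 11 X-Y pairs on chromosome 17 that lay inside a footprint, by replicate, with pairs in genome order. H2-Eb1 -88 is at 100% in all 3 libraries, and 3 pairs are at 0 in replicate 1.

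Replicates 2 and 3 had a peak at the promoters of all 7 genes, and replicate 1 at 6 of 7. A promoter was any coding start with 500 bp on each side, and the background was 51.7%, 58.8% and 58.0% of protein-coding genes in replicates 1, 2 and 3. In all 3 libraries together it was 51.3%, against 6 of the 7. Over the 6 genes open in all 3 libraries, the median percentile of the promoter peak was 82.4, 96.8 and 93.2 in replicates 1, 2 and 3. All promoters open in all 3 libraries had medians of 84.7, 92.4 and 91.9, so the median of the 6 lay below that of promoters in general in replicate 1 and above it in replicates 2 and 3.

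The genes for the presenting chains were open in every library. H2-Aa (chr17:34282744-34287823, minus strand) had a promoter signal of 3.85, 14.1 and 11.9 in replicates 1, 2 and 3, a percentile of 92.9 ± 6.02 (mean ± SD, n = 3). H2-Eb1 (chr17:34305867-34316674) had 3.31, 14.5 and 10.3, a percentile of 91.6 ± 7.40 (SD, n = 3). H2-Ab1 (chr17:34257689-34269419) had 3.02, 7.84 and 5.85, a percentile of 87.9 ± 5.80 (SD, n = 3). By deposited signal and by percentile, replicate 2 was highest and replicate 1 lowest in each of these genes. Replicate 1 was also lowest over all promoters open in all 3 libraries. Relative to those promoters, H2-Ab1 was lower in replicate 3 than in 1, as given below. H2-Ab1 had the lowest percentile of the 3 genes in every library, whereas H2-Aa and H2-Eb1 changed places between libraries. At H2-Ab1 the upstream site around the noncoding start, where H2-Ab1 -5470 lies, had signals of 3.04, 15.98 and 11.7. It was level with the coding promoter in replicate 1 and above it in replicates 2 and 3. A further site at chr17:34261541-34261860, in an intron of H2-Ab1, had 1.63, 6.46 and 4.98.

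Between H2-Aa and H2-Eb1, peaks in all 3 libraries lay at each of the pairs but H2-Eb1 -4592. The signals at H2-Aa -3923 were 1.73, 8.68 and 6.59, those at H2-Aa -8438 were 2.34, 8.93 and 9.35, and those at H2-Eb1 -903 were 1.63, 7.20 and 6.45. At H2-Eb1 -4592 no peak was called in replicate 1, and replicates 2 and 3 had 6.68 and 4.71. One more site of this stretch, at chr17:34293521-34293897, was open in all 3 libraries without a pair, at 1.498, 9.46 and 7.49. Its middle 150 bases are printed because they held 3 of the other motifs searched: GAGGAAGT (bound by PU.1 and related ETS factors), AANNGAAA (IRF factors) and CACGTG (E-box factors), in capitals, on either strand.
H2-Aa upstream, chr17:34293634-34293783: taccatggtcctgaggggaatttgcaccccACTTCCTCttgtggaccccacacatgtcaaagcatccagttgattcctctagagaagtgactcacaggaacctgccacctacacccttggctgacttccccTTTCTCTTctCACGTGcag
Footprints covered 0, 7 and 5 of the 8 bases of the ETS site in replicates 1, 2 and 3, and 0, 3 and 8 of the 8 bases of the IRF site. The E-box had 0, 3 and 0 covered bases, so replicate 1 had no footprint on any of the 3 motifs. Across all merged regions the windows of this length held GAGGAAGT in 3.85%, AANNGAAA in 12.4% and CACGTG in 4.23%, against 3, 11 and 4 of the 90 regions here.

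**Figure D2:**
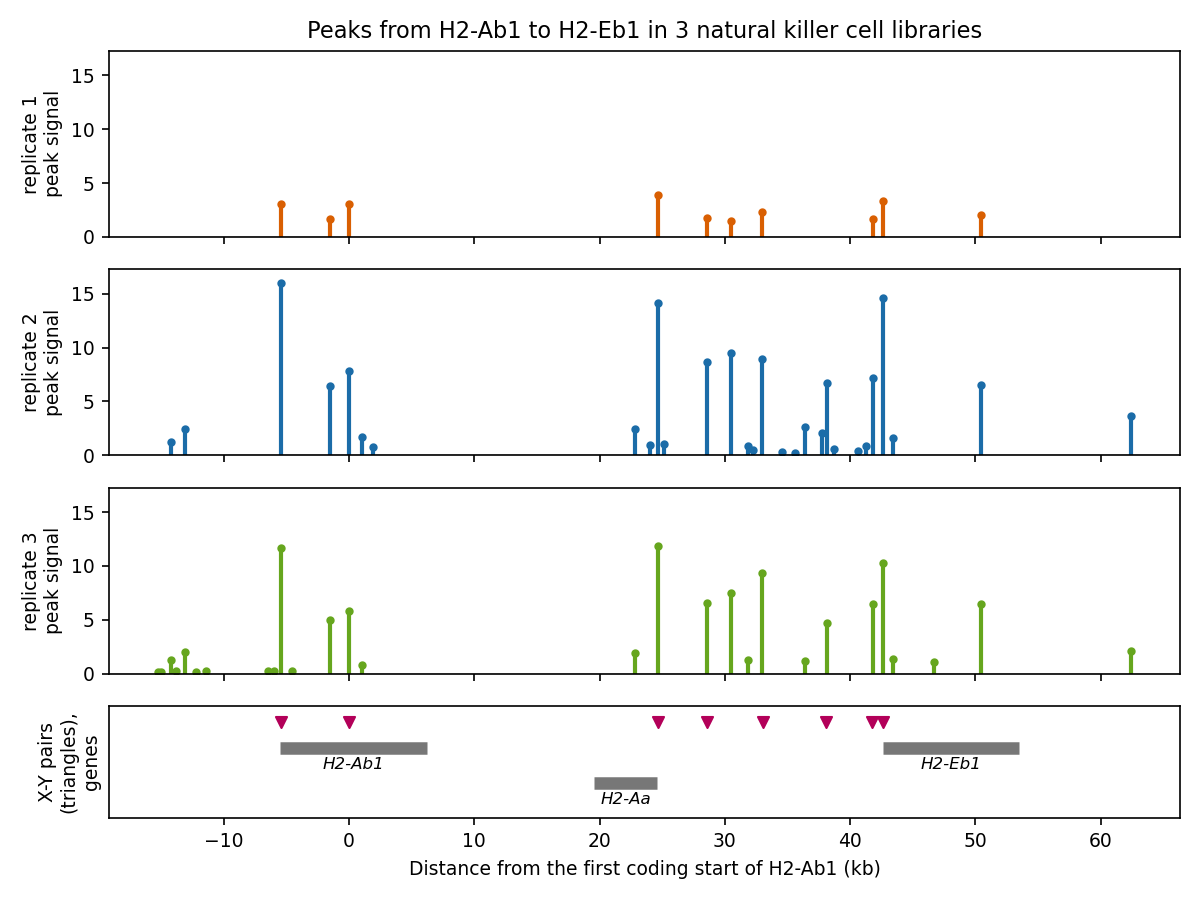
Peak signal (authors' units) of each merged region from H2-Ab1 to H2-Eb1, by replicate, against the distance in kb from the first coding start of H2-Ab1, with the X-Y pairs as triangles. The tall peaks are shared by replicates 2 and 3, and those present in replicate 1 are lower there. Signal is not adjusted between libraries here.

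The peptide exchanger genes differed in promoter rank. H2-DMa (chr17:34119541-34139101) had the strongest promoter peak of the 7 in every library. Its signals were 7.96, 21.9 and 22.0 in replicates 1, 2 and 3, a percentile of 98.4 ± 1.26 (SD, n = 3). This peak lay before the coding start 34135628 and ended at 34135500, 34135580 and 34135480 in replicates 1, 2 and 3. Only in replicate 2 did it reach the X-Y pair H2-DMa -111. Its annotated body begins inside Brd2, a bromodomain gene on the other strand, and a further coding start, at 34122822, shares its peak with Brd2 and had 6.41, 16.6 and 15.8. H2-DMb1 (chr17:34153072-34160230) had 0.932, 2.72 and 2.43, a percentile of 66.9 ± 19.9 (SD, n = 3), with replicate 1 far below the other 2. The H2-DMa peak before 34135628 held the CTCF-type core AGNNGGCG at 2 places on the plus strand. On either strand, 39.4% of genes hold this core in a promoter. Both are printed from GRCm38, named by the position of the core relative to the nearest coding start, with bases footprinted in all 3 libraries in capitals.
H2-DMa -260: aaTTCTGCCGCCAGGCGGCGCTGCTTTGAa
H2-DMa -204: cgaCCTTCCACCAGGGGGCGGAGGTCtcca
All 8 bases of both cores lay inside footprints in each of the 3 libraries.

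Cd74 (chr18:60803848-60812652), the invariant chain gene, had the widest ratio of promoter signal between replicates 2 and 1 among the 6 genes open in both. Its promoter signal was 1.805, 12.9 and 7.74 in replicates 1, 2 and 3, a percentile of 85.9 ± 14.7 (SD, n = 3). Peaks in its introns at chr18:60804921-60805120 (1.32, 6.79 and 5.84) and chr18:60805721-60806020 (1.19, 4.83 and 3.02) followed the same order. Replicate 2 alone held 16 of the 21 regions of the Cd74 window, most of them in the downstream part of the gene and on into the neighbouring Tcof1, with signals between 0.502 and 1.76 and percentiles between 30.7 and 71.5.

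**Figure D3:**
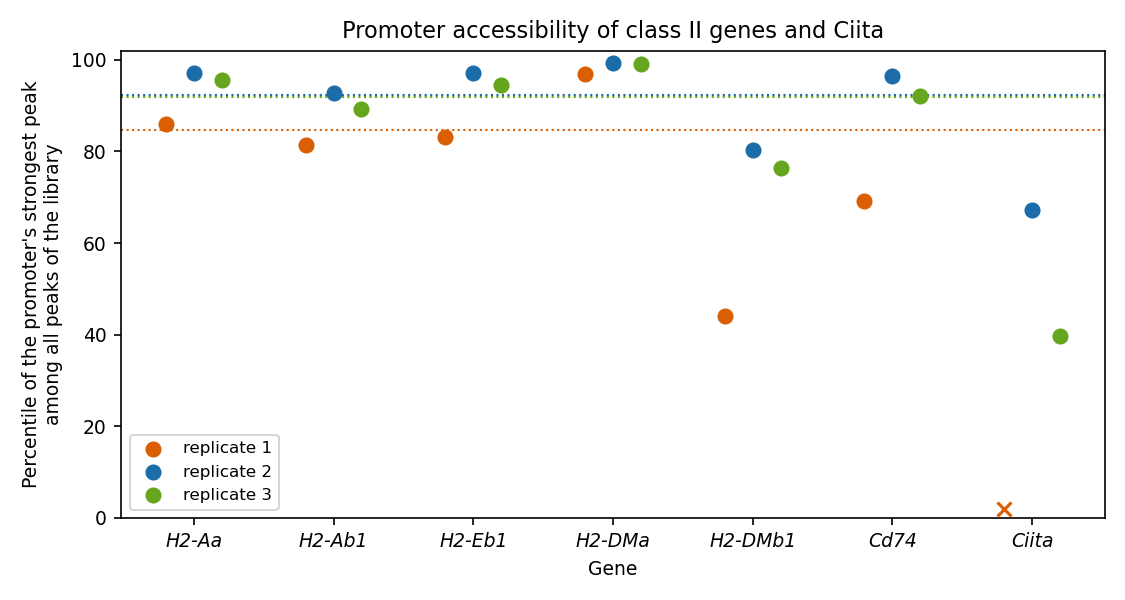
Percentile of the strongest promoter peak of each gene among all peaks of its library, by replicate. Dotted lines are the medians of promoters open in all 3 libraries (84.7, 92.4 and 91.9), and the cross marks Ciita in replicate 1, which had no peak.

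Ciita (chr16:10480059-10528418) was the weakest of the 7. In textbook accounts it is read from several first exons that different cell types use: the most upstream serves dendritic cells and macrophages, the middle one B cells, and the last responds to interferon gamma. Its annotated transcripts start at 4 places, of which 2, at 10488178 and 10488279, share 1 peak. The most upstream starts, 10480059 to 10480164, had no peak in any library. The middle pair had none in replicate 1, 1.47 in replicate 2 and 0.658 in replicate 3. The last, 10489746 to 10489783, had none, 0.547 and 0.415. The authors' list of intervals with a significant cut rate put 0 bp at all of these starts in replicate 1. In replicate 2 it listed 411 bp around the middle pair and 156 bp around the last, and in replicate 3 280 bp and 183 bp. The most upstream starts had 0 listed bp in all 3 libraries.

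The letters of the last Ciita promoter are printed because they held CACGTG (E-box factors) and AANNGAAA (IRF factors), in capitals, from GRCm38 on the plus strand.
Ciita, chr16:10489630-10489734: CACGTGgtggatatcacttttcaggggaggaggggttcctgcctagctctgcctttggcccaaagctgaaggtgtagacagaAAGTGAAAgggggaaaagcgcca
No base of the CACGTG element lay in a footprint in any library, and the AANNGAAA element had 4 of 8 bases covered in replicate 3 alone. Among all protein-coding genes, 11.6% held CACGTG and 36.4% held AANNGAAA in a promoter.

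Ciita also had peaks away from its starts. Its window of 68.4 kb, the longest of the 7, held 3 regions in replicate 1 and 10 in each of replicates 2 and 3. Of the 10, 2 were the peaks at the starts and 1 lay past the end of the gene. The strongest, at chr16:10522901-10523120 in an intron of Ciita that also lies within Dexi, was open in all 3 libraries at 1.32, 4.996 and 2.75. Part of it is shown for its footprint, with bases covered in all 3 libraries in capitals.
Ciita intron, chr16:10522921-10523100: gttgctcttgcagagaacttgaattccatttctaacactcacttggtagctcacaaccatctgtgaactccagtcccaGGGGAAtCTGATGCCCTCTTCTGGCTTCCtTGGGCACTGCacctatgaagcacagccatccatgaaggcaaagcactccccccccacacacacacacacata
The next 2 were at chr16:10521301-10521480, at 0.814, 2.42 and 1.70, and at chr16:10516041-10516460, with no peak, 3.56 and 1.89. In all 10 regions the signal of replicate 2 was above that of replicate 3.

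**Figure D4:**
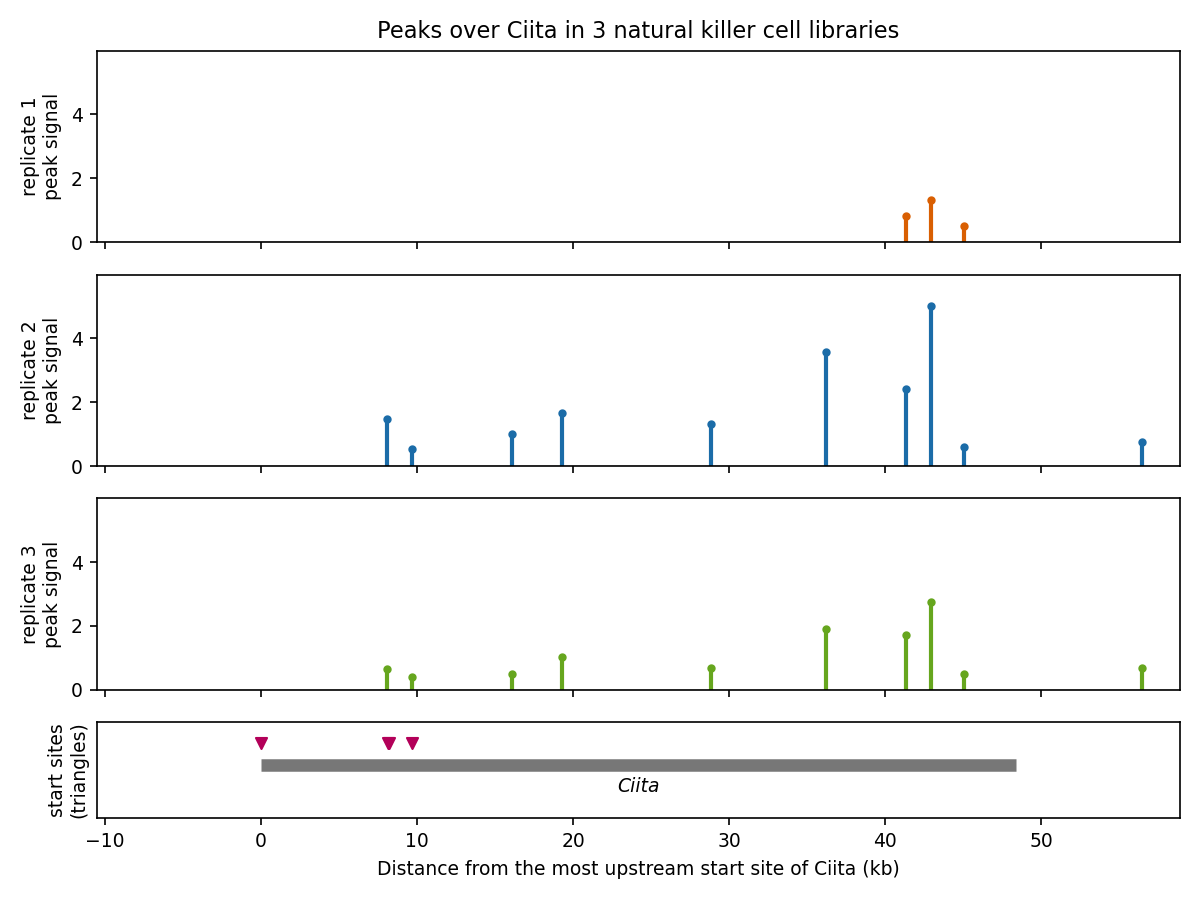
Peak signal (authors' units) of the 10 regions of the Ciita window, by replicate, against the distance in kb from the most upstream start, with annotated starts as triangles. No library has a peak at the most upstream start, and replicate 1 has 3 peaks, all far downstream.

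Counted together, the windows of the 7 genes held 90 merged regions, 4 of them in the windows of 2 genes and 13 at promoters of other genes. Of the 90, 24 were found in all 3 libraries (26.7%, against 35.3% of all merged regions) and 25 in replicates 2 and 3 and not in 1 (27.8%, against 29.7%). Replicate 2 alone held 29 (32.2%, against 17.0%) and replicate 3 alone 12 (13.3%, against 14.1%). Found in replicate 1 without both others were 0 of 90, against 3.77%. The share present in replicates 2 and 3 and missing from 1 was thus close to that of the genome. Cd74 supplied 16 of the 29 regions of replicate 2 alone, and H2-Ab1 8 of the 12 of replicate 3 alone. Those 8 were weak, at signals of 0.197 to 0.290 and percentiles of 1.98 to 7.73, over H2-Ob and around the noncoding start of H2-Ab1.

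Among promoters open in all 3 libraries, those of H2-Aa, H2-Eb1, H2-DMb1 and Cd74 lay above the middle 80% of all promoters (-0.67 to 0.46) for replicate 2 against 1. Differences in log2 signal were centred on the median of all promoters open in all 3 libraries, which itself was 1.06 for replicate 2 minus 1 and 1.10 for 3 minus 1. The centred difference of replicate 2 minus 1 was 0.82 for H2-Aa, 0.32 for H2-Ab1, 1.07 for H2-Eb1, 0.40 for H2-DMa, 0.48 for H2-DMb1 and 1.77 for Cd74, with a median of 0.65. Past 2-fold were 2 of 6, H2-Eb1 and Cd74, against 0.74% of promoters. Of 11209 promoters, 13 had a value at or above that of Cd74, itself included. For replicate 3 minus 1 the median was 0.44, from -0.15 for H2-Ab1 to 1.00 for Cd74, with 0 of 6 past 2-fold against 0.303%. For replicate 2 minus 3 all 6 were above 0, with a median of 0.37 and 0 past 2-fold against 0.384%.

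The 24 regions open in all 3 libraries were centred on all such regions. For replicate 2 minus 1 their median centred difference was 0.99, and 12 of 24 were past 2-fold against 3.08% of regions. For replicate 3 minus 1 it was 0.60, with 3 of 24 against 1.89%, and 1 region, in an intron of Ciita, was lower past 2-fold at -1.13, against 5.33%. For replicate 2 minus 3 it was 0.35, with 1 of 24 against 0.723%, and 22 of 24 were above 0. That 1 region lay at the promoter of the neighbouring H2-DMb2 and was also the highest for replicate 2 minus 1, at 1.96. By gene, the medians of replicate 2 minus 1 ran from 0.51 at H2-DMa to 1.45 at Cd74. With 1 library on each side these differences have no test.

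**Figure D5:**
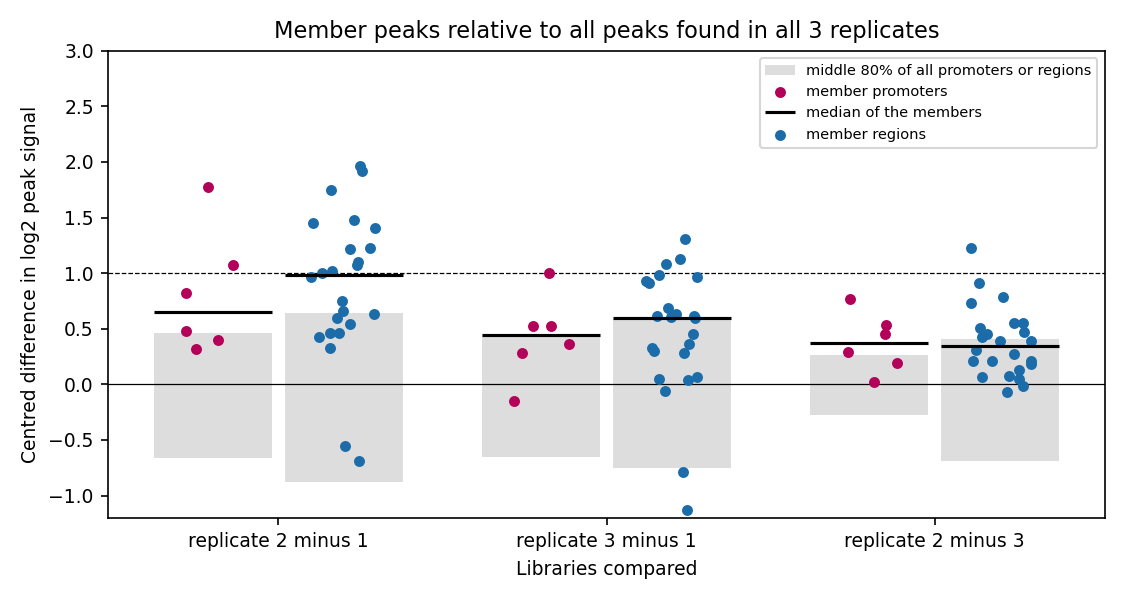
Centred difference in log2 peak signal between libraries for the 6 promoters and 24 regions open in all 3, each a point, with black bars at their medians and grey boxes for the middle 80% of all promoters or regions. The dashed line marks 2-fold, and the medians for replicate 2 minus 1 are 0.65 and 0.99.

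Footprints around the 7 genes numbered 54, 233 and 153 in replicates 1, 2 and 3, or 10.2, 11.7 and 12.4 per kb of peak. All peaks had 9.85, 11.3 and 11.2 per kb, so the density here was close to that of each library. A footprint was held by 24 of 24 regions with a peak in replicate 1 (76.8% of all such regions), 66 of 78 in replicate 2 (82.0%) and 49 of 61 in replicate 3 (81.1%).

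The rest of the pathway was mostly open. Of 30 further class II pathway genes, 26, 30 and 29 were open at the promoter in replicates 1, 2 and 3, and 26 in all 3, against 51.7%, 58.8%, 58.0% and 51.3% of all protein-coding genes. The highest ranks were those of Nfya, a subunit of the Y box factor NF-Y (mean percentile 99.9), the remodeller Smarca4 (99.3), the RFX subunit Rfxank (99.0) and the protease Lgmn (97.9). No gene of the list was closed in all 3 libraries. Among the nonclassical class II genes, H2-DMb2, a further DM beta chain, had 1.25, 9.18 and 4.08, and H2-Ob, the beta chain of DO, which inhibits DM, had 0.802, 4.23 and 4.06. This H2-DMb2 peak lies in the windows of H2-DMa and H2-DMb1 and is the same peak as 1 of the 24 regions above. H2-DMb2 and H2-Ob were the 2 of 26 past 2-fold for replicate 2 over 1 (0.74% of all promoters), and H2-Ob alone for 3 over 1 (0.303%). For 2 over 3 (0.384%) they were H2-DMb2 and Irf4, a factor of B cell and dendritic cell genes. The list's median centred difference was 0.30 for replicate 2 minus 1, 0.18 for 3 minus 1 and 0.02 for 2 minus 3.

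B cell marker genes differed between the libraries as well. The summed promoter signal of the 12 B cell markers, divided by the library's median promoter signal, was 1.64, 6.79 and 3.51 in replicates 1, 2 and 3, with replicate 2 highest and replicate 1 lowest. Relative to all promoters, H2-Aa, H2-Eb1, H2-DMb1 and Cd74 had that order too. H2-DMa was lowest in replicate 1 and nearly level in the others, at 0.026 for replicate 2 minus 3. H2-Ab1 was lower in replicate 3 than in 1. The median centred difference of the B cell markers was 1.65 for replicate 2 minus 1, 0.58 for 3 minus 1 and 1.07 for 2 minus 3, over 7 genes. For the 6 class II promoters these were 0.65, 0.44 and 0.37. Ebf1, Cr2 and Pax5 ranked highest, and Fcer2a, Blk, Cd22 and Fcrla were among those with no promoter peak in replicate 1. The 12 dendritic cell markers summed to 2.31, 3.20 and 3.13, also highest in replicate 2 and lowest in replicate 1. Of them 6, 8 and 7 were open (50%, 66.7% and 58.3%), against 51.7%, 58.8% and 58.0% of all protein-coding genes. The same background applies to the lists that follow. Tcf4, Bst2 and Ccr7 ranked highest, and Cd209a, Clec10a, Clec9a and Xcr1 had no peak in any library. The 12 monocyte and macrophage markers summed to 0.803, 1.12 and 1.22 with 3, 7 and 5 open. Cd68 and Itgam were open in all 3 libraries, and Adgre1, C1qa, Ccr2 and Csf1r had none. The 12 natural killer markers summed to 5.96, 4.08 and 7.55, lowest in replicate 2. The 12 T cell markers summed to 1.14, 1.51 and 1.63 with 3, 9 and 6 open. Cd28, Lef1 and Cd3d ranked highest, and Cd4, Cd8a and Trat1 had no peak. Of 4 plasma cell markers 1, 2 and 2 were open, with Xbp1 in all 3 libraries and Jchain and Tnfrsf17 in none. Of 8 neutrophil markers, Camp, Cebpe, Elane and Ly6g among them, 0 were open in any library. The part of other cells in the class II values was not tested.

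By their 3 percentiles, other promoters were set against the medians of the 7 genes, which were 82.4, 96.5 and 92.0 in replicates 1, 2 and 3. In replicate 1 the median covers 6 genes, since Ciita had no peak there. The nearest promoters were those of Arsg and Slc16a6, which share their promoter peak and lay 1.69 percentile points away. Fbxo44 and Fbxo2, which also share theirs, lay 2.05 away and Mthfd1 2.09, among 11203 promoters open in all 3 libraries. Likeness over 3 libraries is a description only.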

How the data were processed

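DNase-seq peaks, footprints and cut-rate intervals of 3 natural killer cell libraries were used as the authors deposited them. Per the labels the assembly is mm10. Which aligner and callers made them is not given in the sources used here. There were 2 deposited peak lists a library, and the longer was used. Its signal is the deposited value of column 7, of unstated scale. The score of the deposited footprints is the constant 0.01 and was not used. The deposited q-values (false discovery rates) of the cut rate served only to count listed bases. Read depth is unknown, so no counting intervals are given.

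Genes and start sites came from GENCODE release M21, with 54361 coding starts of 21853 protein-coding genes. Overlap of at least 1 bp counted. Where start sites are listed, those under 100 bp apart were joined. Peaks of the 3 libraries were merged into 99408 regions. Footprints per kb were counted with at least 50% of their bases inside a peak. Cover of pairs and motifs took in all deposited footprints. Sequences came from the RefSeq GRCm38 genome, on whose coordinates mm10 is based. Scripts ran in Python 3.11.15 with pandas and pysam and were tested on simulated data. Since all libraries form 1 group, no test was made. Each replicate's values and the share of all genes or regions stand in its place.

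All 7 genes were named. Of the pathway list the 4 highest in mean percentile and those closed in all libraries were named, and of each marker list the 3 highest and up to 4 closed in all. H2-DMb2, H2-Ob and Irf4, past 2-fold, and the B cell markers closed in replicate 1 were named after their values were seen. The members and lists were chosen with earlier results of these data known. Of 33 pathway entries, 30 matched a protein-coding gene. Alternatives were the shorter list, the better 50% of peaks, other promoter and flank widths, other overlap rules, and leaving out each library. Some items withheld for evaluation are not reported here.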

Additional observations from a re-analysis of the deposited data

How the results depend on the processing

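Of the values recomputed under alternatives, 26 moved by more than the tolerance (1.5 times for a count, 1 SD otherwise), 93 did not and none changed sign. The 26 take in promoter differences given as percentile points, a scale other than log2, and region counts under other flanks, which change with the window. The tally is therefore a description only. The number of genes open in all libraries kept was 6 to 7 when each replicate was left out, and 5 with the shorter list or the better 50% of peaks, where H2-DMb1 in replicate 1 was lost. Leaving out a replicate gave 62 to 90 regions found and 23 to 49 in all libraries kept, the highest without replicate 1. The better 50% of peaks gave 55 regions. With no flank there were 48 regions, 14 of them in replicates 2 and 3 and not in 1. With 50 kb there were 159, 43 and, in all 3, 52. As percentile points, the median promoter difference was 12.6 for replicate 2 minus 1, 10.4 for 3 minus 1 and 3.14 for 2 minus 3, against 6.89, 6.54 and 0.281 for all promoters. Regions past 2-fold for replicate 2 over 1 numbered 7 with the shorter list, of 17, and 7 with no flank, of 18. Past 2-fold for 2 over 3 there were 0 under both of these and 5 without replicate 1, of 49. The leave-one-out values of the other differences were 0.65, 0.44 and 0.45 for promoters (2 minus 1, 3 minus 1 and 2 minus 3) and 0.99, 0.62 and 0.35 for regions, with 12 past 2-fold for 2 over 1 and 3 for 3 over 1. Each left out only the library that was not compared. These values therefore cannot show how a difference depends on either of its own libraries. Without Cd74 the promoter median for 2 minus 1 was 0.48, with 1 of 5 past 2-fold. Footprints per kb rose to 12.1, 13.2 and 14.1 with the shorter list and, in replicates 1 and 2, to 12.4 and 13.3 with no flank. Here fewer peaks enter. X-Y pairs were found in 2 of 7 genes with 500 bases on each side, against 3.34% of all protein-coding genes. The wider X core was chosen after seeing the data, as were the leave-one-out differences. With it, ATTGG 21 to 23 bases on gave 4 genes (against 0.288% of all), or 5 (0.815%) with 500 bases on each side. Either Y orientation 15 to 35 bases on gave 5 (5.52%), or 6 (14.5%) with 500 bases on each side. Ciita starts with a peak in replicate 3 fell from 3 to 0 among the better 50% of peaks. No paired analysis was possible because there was 1 group. The unknown depth of replicate 1 limits every absence reported there.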
